A study of Homo sapiens with 3 samples.

Results

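The genes described here are the BCL2 family, the caspases and the inhibitor of apoptosis proteins (IAPs), with the adaptors, mitochondrial factors and nuclease that connect them. They were chosen by name, as every probe set annotated to 1 of 47 listed genes. Of these, 44 had a probe set of 1 symbol, with 130 probe sets in all, out of 19775 genes and 41097 probe sets on the array. BBC3, RIPK1 and BIRC3 had none, so their signals are not analysed here.

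The samples were 3 preparations of total RNA from a human metastatic hepatocellular carcinoma line. MHCC97Low was the parental line, and MHCC97L/CisR and MHCC97L/DoxR were sublines of it resistant to cisplatin and to doxorubicin. Cisplatin crosslinks DNA and doxorubicin poisons topoisomerase II. All 3 were grown in DMEM with serum and were labelled as untreated, so no drug was named as present at harvest, and each resistance was represented by 1 subline. Whether a subline was 1 clone, and the dose and length of selection, are not given in the sources used here. Each line was hybridised to 1 Affymetrix U133 Plus 2.0 array. There was thus no replicate against which to weigh a difference, no test was possible, and precision is limited by this number of arrays.

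Apoptosis is a form of cell death carried out by caspases, proteases that cut each other and many cell proteins. In the mitochondrial route, BH3-only proteins sense damage and neutralise BCL2 and its antiapoptotic relatives, which frees BAX and BAK1 to open the outer mitochondrial membrane. Cytochrome c then leaves the mitochondrion, assembles APAF1 and caspase 9 into the apoptosome, and starts the caspase cascade, which the IAPs hold back. In the death receptor route, ligands such as FASLG bring FADD and caspase 8 together, and CFLAR blocks that step. Hepatocyte-type cells are known to need BID, a substrate of caspase 8, to carry the receptor signal to the mitochondrion.

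Values are MAS5 signals in linear units. Signals at or under the floor of 76.9, the median of all signals on the 3 arrays, were set to that value, and log2 was taken after that. Each gene took the values of its brightest probe set by mean signal, was compared where at least 1 of the 2 arrays lay above the floor, and was called at a 2-fold difference. A fold is given as "at least" where the lower of its signals did not exceed the floor. Signals of different genes come from different probes, so no gene is called more abundant than another from them.

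The arrays were alike in scale, with median signals of 73.3 to 79.2. Of 10 hepatocyte and hepatoma markers with a probe set, 9 lay above the floor in the parental and 8 in each resistant array, with summed signals of 61766 to 68720.3, most of them from the keratins KRT8 and KRT18. Of 9 compared markers, 7 passed 2-fold downward with cisplatin resistance, at a median log2 difference of -2.02 over the 9. With doxorubicin resistance 1 passed it upward and 2 downward, at a median of -0.42. Transferrin (TF) had signals of 4925, 234 and 404 and fibrinogen beta (FGB) 1977, 291 and 49.6 in parental, cisplatin-resistant and doxorubicin-resistant cells. The part of these markers in the results was not tested. Among the other markers, APOA1 was under the floor on all 3, and albumin (ALB) had signals of 1545 in parental, 3.17 in cisplatin-resistant and 3115 in doxorubicin-resistant cells. The leukocyte markers summed to 167 to 239.7 over 4 genes. PTPRC, which defines leukocytes, was under the floor throughout, as were CD14 and LYZ. CD3E was just above the floor in the cisplatin-resistant and doxorubicin-resistant arrays, at 86.6 and 78.7, and the fibroblast marker DCN in the cisplatin-resistant array, at 86.0. COL1A1 among 5 fibroblast markers and PECAM1 and KDR among 4 endothelial ones were above it on all 3 arrays.

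Across the pathway, few members differed by 2-fold. Against parental, 1 of 41 compared members was lower in the cisplatin-resistant array, PMAIP1, and none was higher. Of all 12699 genes compared there, 2.58% were at least 2-fold lower and 2.82% higher. In the doxorubicin-resistant array 1 of 42 compared members was lower, BMF, and none was higher, beside 2.75% and 2.99% of 12599 genes. Both of these members are BH3-only genes, and both shares lie near the background of all genes. Because these are bulk samples, fewer cells with a transcript and less of it per cell cannot be told apart.

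Taken without regard to signal, the spread of the members around their own median was narrower than that of all genes. Their log2 differences had an SD, scaled from the median absolute deviation, of 0.297 with cisplatin resistance and 0.291 with doxorubicin resistance, beside 0.369 and 0.370 for all compared genes. The median absolute log2 difference was 0.254 for members and 0.249 for all genes with cisplatin resistance, and 0.207 and 0.249 with doxorubicin resistance. At 1.5-fold in either direction, 6 of 41 members were past the threshold in the former, beside 17.6% of all genes, and 7 of 42 in the latter, beside 17.7%. The 6 were PMAIP1, BMF, BIK, HTRA2, CASP6 and RIPK3. The 7 were BMF, BIK, BCL2L2, CASP1, RIPK3, BCL2L1 and TRADD. Calls at 2-fold were fewer among bright genes in general, at 2.43% of the brightest of 3 equal groups of genes and 8.79% of the dimmest in the cisplatin-resistant array, and 23 of the 41 members fell in the brightest.

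The promoter sequences of the genes called against parental are shown for reference, as the 250 bases before a RefSeq transcription start of GRCh38.p14, since no value here measures promoter activity. Of the 47 members, 37 matched the promoter table by symbol, among them RIPK1 and BIRC3, which have no signal here. Capitals mark TGACG, the core of the cyclic AMP response element bound by ATF and CREB factors, and GGGCGG, the GC box bound by SP1, searched on both strands. PMAIP1 lies at chr18:59899746-59899995 on the plus strand and BMF, at 1 of its 2 listed starts, at chr15:40108880-40109129 on the minus strand.
PMAIP1: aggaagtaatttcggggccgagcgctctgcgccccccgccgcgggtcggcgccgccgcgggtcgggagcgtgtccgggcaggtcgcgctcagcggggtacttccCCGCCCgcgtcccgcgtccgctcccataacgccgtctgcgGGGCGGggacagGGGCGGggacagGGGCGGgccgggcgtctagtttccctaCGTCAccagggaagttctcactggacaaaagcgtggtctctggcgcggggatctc
BMF: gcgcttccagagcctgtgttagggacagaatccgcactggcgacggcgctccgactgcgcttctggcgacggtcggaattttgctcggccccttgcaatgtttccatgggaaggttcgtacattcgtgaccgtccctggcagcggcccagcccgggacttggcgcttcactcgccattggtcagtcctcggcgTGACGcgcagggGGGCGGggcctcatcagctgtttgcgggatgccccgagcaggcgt

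The PMAIP1 window held 1 match to TGACG, read from the opposite strand, and 4 to GGGCGG, 3 of them on the plus strand. The BMF window held 1 of each, and the window at its other start held neither. No matched base belonged to both motifs. Of 35116 promoters of this length, 21.2% held TGACG and 42.6% held GGGCGG. The 64 promoters of the 37 matched members, where a gene with several starts counts more than once, held them in 22 (34.4%) and 38 (59.4%). Their median GC content was 63.6% against 58.0% for all. The TATA box TATAAA was in 10.7% and the p53 half-site in 5.57% of all promoters and in neither printed window. Of the 64 member promoters, 4 (6.25%) held the TATA box and 3 (4.69%) the p53 half-site. Letters of a motif are a description of the sequence and say nothing of binding.

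**Figure D1:**
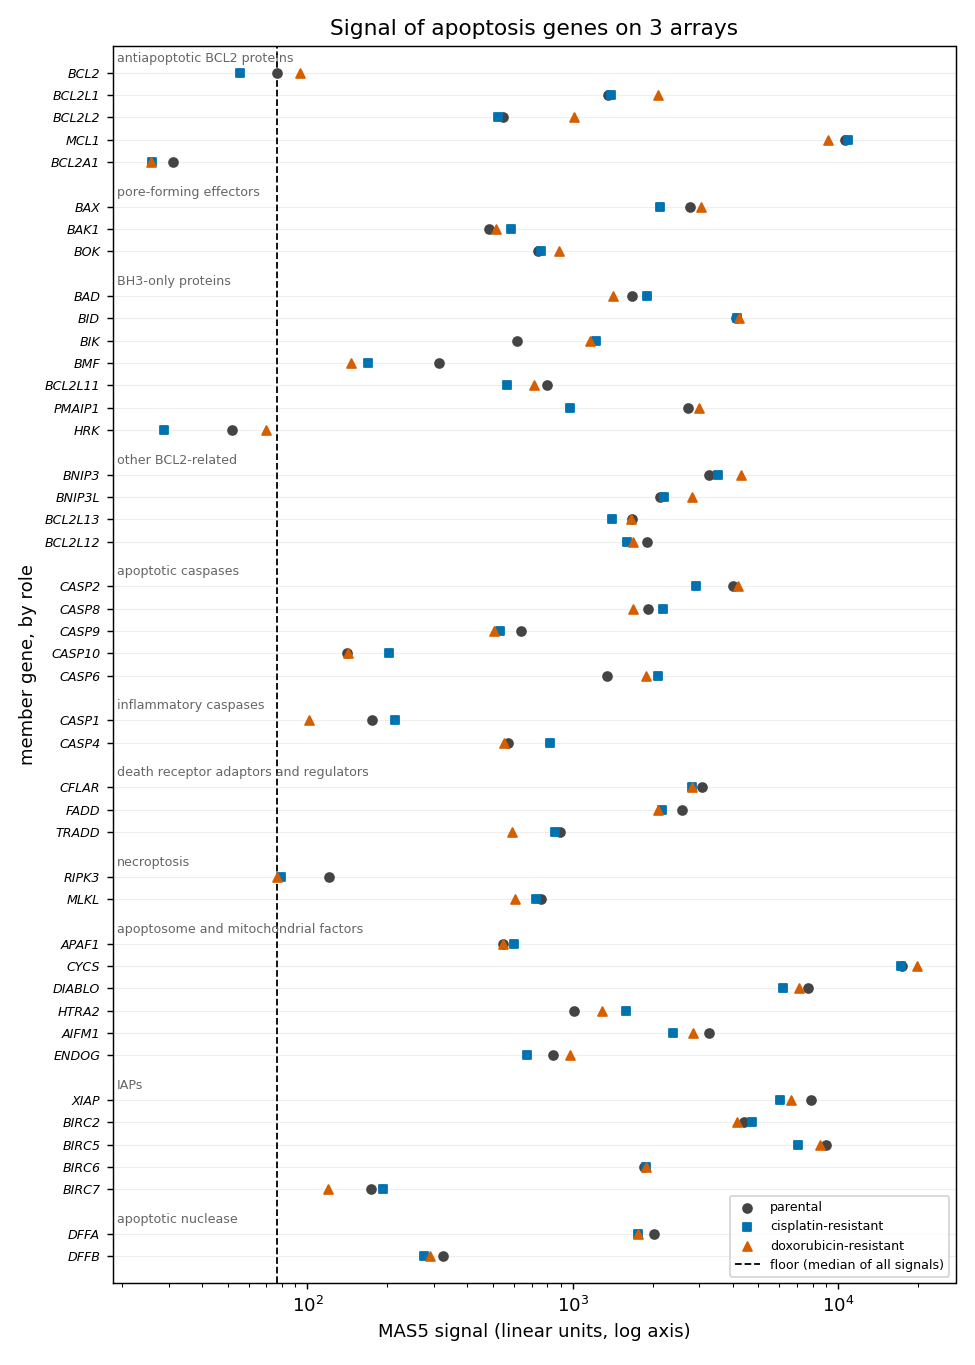
MAS5 signal (linear units on a log axis) of the 44 measured genes, grouped by role, with 1 point for each of the 3 arrays and the floor of 76.9 as a dashed line. Most triplets of points lie close together, while the cisplatin-resistant point of PMAIP1, at 978, lies apart from 2711 and 2978, and both resistant points of BMF lie left of the parental one.

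The antiapoptotic BCL2 proteins bind BH3-only and effector proteins at the mitochondrion and keep them inactive. MCL1, a short-lived member of the group, had signals of 10590.3 in parental, 10877 in cisplatin-resistant and 9187 in doxorubicin-resistant cells. By this probe set the 3 values lay within 1.18-fold of each other, but the 6 measured probe sets of MCL1 differed in direction. In the cisplatin-resistant array 5 of them were lower than parental, by up to 1.39-fold, and in the doxorubicin-resistant array 3 were higher and 3 lower. Between the sublines 4 of 6 were higher in the doxorubicin-resistant array, by up to 1.45-fold. BCL2L1, which encodes BCL-XL, had signals of 1354, 1388 and 2085 in the same order. Its doxorubicin-resistant value was 1.54-fold above parental, and all 4 of its probe sets were higher there, by 1.29-fold to 1.78-fold. In the cisplatin-resistant array the same 4 probe sets were within 1.04-fold of parental.

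BCL2L2, the gene of BCL-w, had signals of 546, 523 and 1012. The doxorubicin-resistant array again stood alone, 1.85-fold above parental and just under the 2-fold threshold, by 1 measured probe set. BCL2 itself was dim, with 76.7, 55.7 and 93.9, and only the doxorubicin-resistant value lay above the floor, at least 1.22-fold over parental. The other 3 probe sets of BCL2 were under the floor on every array. BCL2A1, an NF-kB target best known in blood cells, was under the floor throughout at 31.3, 26.0 and 25.8. Of the 4 compared genes of this group, 3 were above parental in the doxorubicin-resistant array, with a median log2 difference of 0.46, beside 0.00 for all genes, and the 3 compared in the cisplatin-resistant array lay between -0.06 and 0.04.

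BAX, BAK1 and BOK form the pores. BAX had signals of 2765, 2129 and 3046, in the order used above. The cisplatin-resistant value was the lowest, 1.30-fold under parental, and its second probe set showed 1.33-fold. BAK1 had 485, 583 and 513, and BOK had 736, 758 and 885. Neither differed by more than 1.20-fold from parental on either resistant array.

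The BH3-only genes held the largest differences in both directions. PMAIP1 encodes NOXA, which binds mainly MCL1 and is a target of p53 and of ATF4. Its signals were 2711 in parental, 978 in cisplatin-resistant and 2978 in doxorubicin-resistant cells. It was 2.77-fold lower in the cisplatin-resistant array, and its second probe set, with 987, 289 and 1142, was 3.42-fold lower. In the doxorubicin-resistant array the 2 probe sets were 1.10-fold and 1.16-fold higher than parental.

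BMF, which is held on the cytoskeleton until cells detach, had signals of 314, 169 and 146. Both resistant arrays were lower, by 1.86-fold under cisplatin resistance and 2.16-fold under doxorubicin resistance, with 1 probe set. The second call rests on a dim signal and came to a log2 difference of -0.90 with a constant of 50 added in place of the floor. BIK, a BH3-only protein of the endoplasmic reticulum, went the other way, with 618, 1224 and 1158. It was 1.98-fold and 1.88-fold higher, just under the threshold, again by 1 probe set. The comparisons share the parental array, so a low or high parental value moves both differences of a gene together.

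The other BH3-only genes were closer to parental. BCL2L11, the gene of BIM, had 796, 566 and 715, and all 6 of its measured probe sets were lower in the cisplatin-resistant array, by 1.05-fold to 1.74-fold. In the doxorubicin-resistant array 5 of those 6 were lower, by no more than 1.15-fold for the 5, while the sixth was 1.20-fold higher. BAD, which growth factor signalling holds inactive, had 1673, 1897 and 1421, 1.13-fold above and 1.18-fold below parental. BID had 4114, 4143 and 4228, within 1.03-fold of parental by the chosen probe set. Its other 2 measured probe sets were 1.22-fold and 1.26-fold lower in the cisplatin-resistant array and within 1.04-fold in the doxorubicin-resistant array. HRK was under the floor on all 3 arrays, at 51.9, 28.9 and 69.7. Of 6 compared BH3-only genes, 3 lay above and 3 below parental in each resistant array, or 2 and 4 in the cisplatin-resistant array with arrays centred on their medians.

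BNIP3 and BNIP3L are mitochondrial proteins of the mitophagy pathway that hypoxia induces. BNIP3 had 3257, 3532 and 4290.2, and BNIP3L had 2136, 2214 and 2799.9. In the doxorubicin-resistant array both probe sets of each gene were higher, by 1.28-fold to 1.35-fold. BCL2L13, another mitophagy receptor, had 1674, 1401 and 1657. Its measured probe sets did not agree in the cisplatin-resistant array, where they ran from -0.30 to 0.80 in log2 difference. BCL2L12 had 1908, 1601 and 1690.4, 1.19-fold and 1.13-fold lower.

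**Figure D2:**
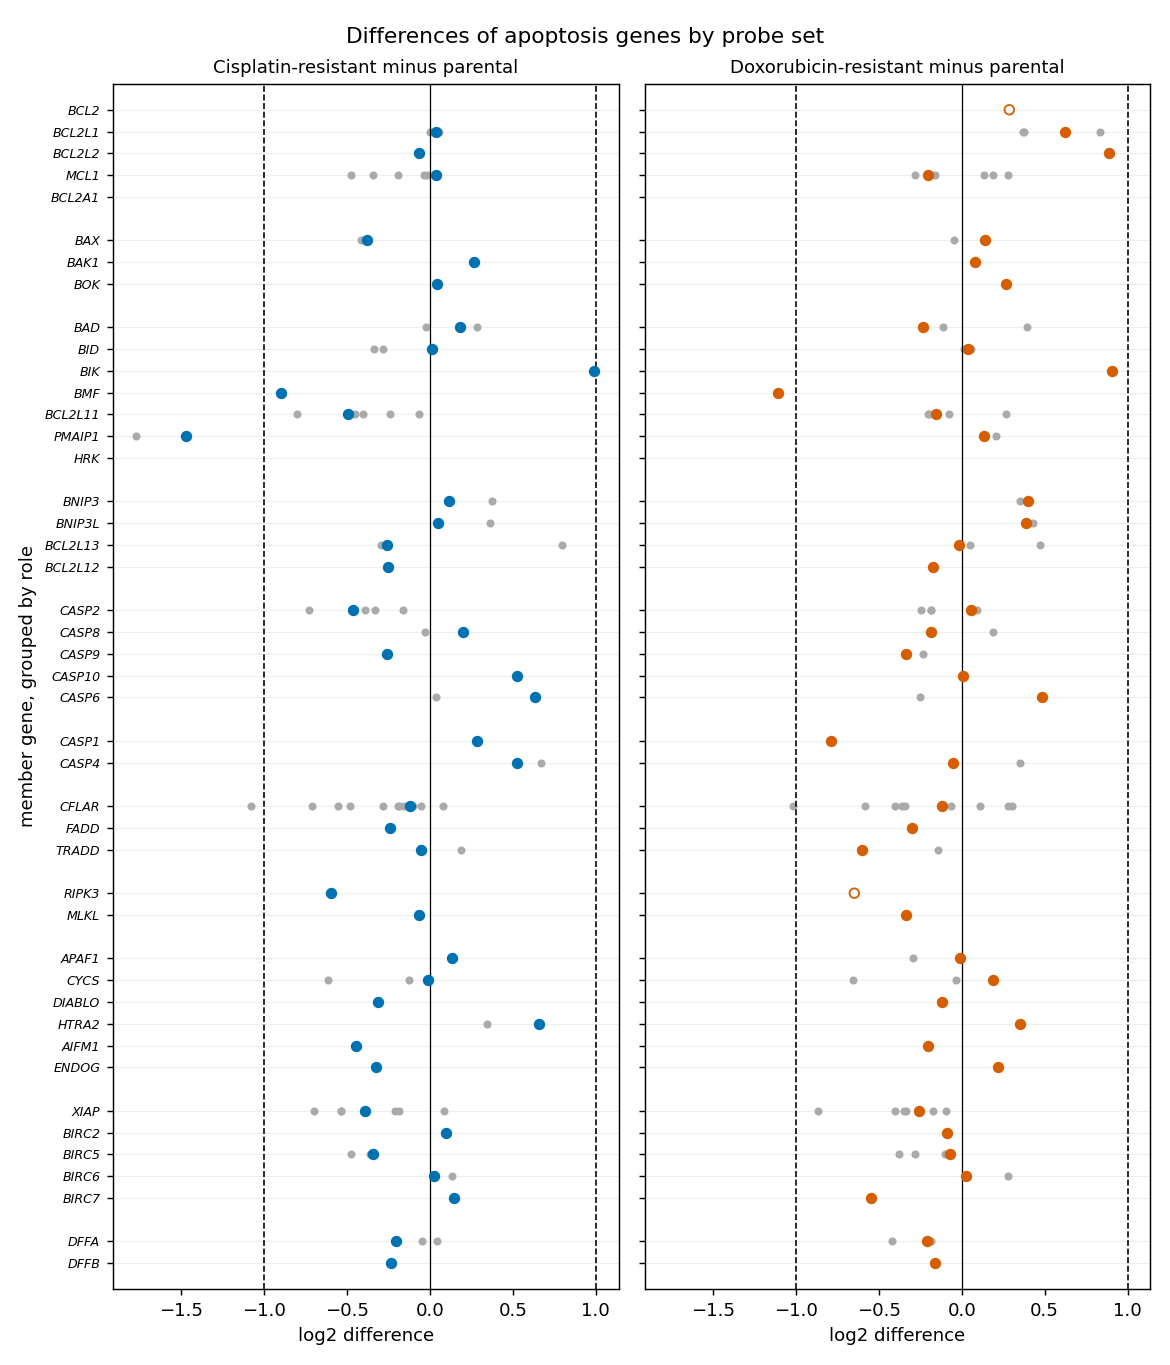
Log2 difference from parental (horizontal) of each compared member, grouped by role, in the cisplatin-resistant (left) and doxorubicin-resistant (right) array; large points are the chosen probe set, open where 1 side lay at or under the floor, small grey points the gene's other probe sets above the floor on both arrays, and dashed lines 2-fold. PMAIP1 lies past the left line in the first panel by both probe sets, BMF in the second, and BIK close to the right line in both.

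Among caspases, the initiators are switched on by their platforms and the executioners by the initiators. CASP8, the death receptor initiator, had signals of 1911, 2193 and 1680.4, and its 2 measured probe sets had opposite signs in both resistant arrays. CASP10, its relative, had 141, 203 and 142, so the cisplatin-resistant array was 1.44-fold higher. CASP9, the apoptosome initiator, had 637, 533 and 505, and both measured probe sets were lower in each resistant array, by 1.17-fold to 1.26-fold. CASP2 had 4014, 2908 and 4176, and all 5 measured probe sets were lower in the cisplatin-resistant array, by 1.12-fold to 1.66-fold. CASP6, an executioner that cuts lamins, had 1346, 2086 and 1885, above parental by log2 differences of 0.63 and 0.49. Its other probe set showed 1.02-fold higher in the cisplatin-resistant and 1.19-fold lower in the doxorubicin-resistant array.

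The inflammatory caspases cut interleukin precursors and gasdermin D. CASP1 had signals of 175 in parental, 213 in cisplatin-resistant and 101 in doxorubicin-resistant cells, 1.22-fold higher and 1.73-fold lower than parental. Its other measured probe set, with 64.9, 209 and 115, was above parental in both resistant arrays, by log2 differences of at least 1.44 and at least 0.58, so the 2 probe sets had opposite signs in the doxorubicin-resistant array. CASP4, which senses bacterial lipopolysaccharide, had 569, 819.9 and 548. It was 1.44-fold higher in the cisplatin-resistant array, with 1.59-fold by its second probe set, and 1.04-fold lower in the doxorubicin-resistant one, where the second probe set was 1.27-fold higher.

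By their chosen probe sets, the measured adaptors and the inhibitor of the receptor route were below parental in both resistant arrays, also with either other scaling. FADD, which links receptors to caspase 8, had 2571, 2176 and 2089, 1.18-fold and 1.23-fold lower. TRADD, the adaptor of TNF receptor 1, had 893, 859 and 590.2, and the doxorubicin-resistant array was 1.51-fold lower, or 1.11-fold by the second probe set, which was 1.14-fold higher in the cisplatin-resistant array. CFLAR, the FLIP inhibitor, had 3063, 2814 and 2820.1, 1.09-fold lower in both. CFLAR has many transcripts. Among members ranked by probe sets above the floor on both arrays compared, which leaves out CASP1 against parental, its probe sets disagreed most. They ran from -1.08 to 0.08 in log2 difference over 12 measured probe sets in the cisplatin-resistant array, 11 of them lower. In the doxorubicin-resistant array they ran from -1.02 to 0.30 over 11, with 8 lower, and in each array 1 probe set passed 2-fold. RIPK3, the kinase of necroptosis, had 120.5, 79.7 and 76.6, 1.51-fold lower with cisplatin resistance and at least 1.57-fold lower with doxorubicin resistance, close to the floor. Its substrate MLKL, which ruptures the plasma membrane, had 759.8, 727 and 603, 1.05-fold and 1.26-fold lower.

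The mitochondrial factors are released when the outer membrane opens. CYCS, cytochrome c, had 17387, 17241 and 19838, and APAF1, which it activates, had 548, 601 and 545, both within 1.14-fold of parental by the chosen probe set. The other 2 measured probe sets of CYCS, far dimmer, were lower in each resistant array, by 1.02-fold to 1.57-fold. The second measured probe set of APAF1 was 1.10-fold higher in the cisplatin-resistant and 1.23-fold lower in the doxorubicin-resistant array. HTRA2, a protease that binds IAPs, had 1006, 1588 and 1284. It was 1.58-fold and 1.28-fold higher, and the second probe set showed 1.27-fold in each. DIABLO, the SMAC protein that displaces IAPs from caspases, had 7711, 6205 and 7105, 1.24-fold and 1.09-fold lower. AIFM1, a flavoprotein that can move to the nucleus, had 3254, 2387 and 2825, and the nuclease ENDOG had 839, 669.7 and 976. Both were lowest in the cisplatin-resistant array, by 1.36-fold and 1.25-fold under parental. The nuclease DFFB, which cuts chromatin into a ladder, had 324, 275 and 290.2, and DFFA, its inhibitor and chaperone, had 2030.3, 1759 and 1756. Neither differed by more than 1.18-fold by the chosen probe set.

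The IAPs bind caspases or mark cell death proteins with ubiquitin. XIAP, the direct caspase inhibitor, had 7923 in parental, 6051 in cisplatin-resistant and 6631 in doxorubicin-resistant cells, 1.31-fold and 1.19-fold lower. All 7 of its measured probe sets were lower in the doxorubicin-resistant array, by 1.07-fold to 1.82-fold, and 6 of 7 in the cisplatin-resistant array. BIRC5, survivin, which also serves chromosome segregation in mitosis, had 8971, 7060.4 and 8529. Its 4 probe sets were lower in the cisplatin-resistant array by 1.27-fold to 1.39-fold, and in the doxorubicin-resistant array by 1.05-fold to 1.30-fold. BIRC2 (4431, 4737 and 4168) and BIRC6 (1853, 1886 and 1889) are ubiquitin ligases, and both stayed within 1.07-fold of parental by the chosen probe set. BIRC7, livin, had 174, 192 and 119, 1.46-fold lower in the doxorubicin-resistant array.

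The genes were assigned to pro-apoptotic and anti-apoptotic sides from their known roles, with 10 genes of mixed or other roles on neither side. In the cisplatin-resistant array 10 of 23 compared pro-apoptotic genes lay above and 13 below parental, with a median log2 difference of -0.06, and 5 of 9 anti-apoptotic genes lay above, with a median of 0.03. With arrays centred on their medians these counts were 9 of 23 and 4 of 10. The median of the pro-apoptotic minus that of the anti-apoptotic genes was -0.08, or -0.21 over the median of each gene's probe sets and -0.016 with the floor at the 75th percentile of all signals, and all genes had a median of 0.02. In the doxorubicin-resistant array 12 of 23 pro-apoptotic genes lay above parental, with a median of 0.01, and 4 of 10 anti-apoptotic genes, with a median of -0.08, so the difference of medians was 0.09 beside 0.00 for all genes. With the median of neighbouring genes subtracted it was -0.08. The anti-apoptotic side was mixed in that array, with BCL2L1 and BCL2L2 above parental and 4 of the 5 measured IAPs below it. No interval can be given for these values.

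**Figure D3:**
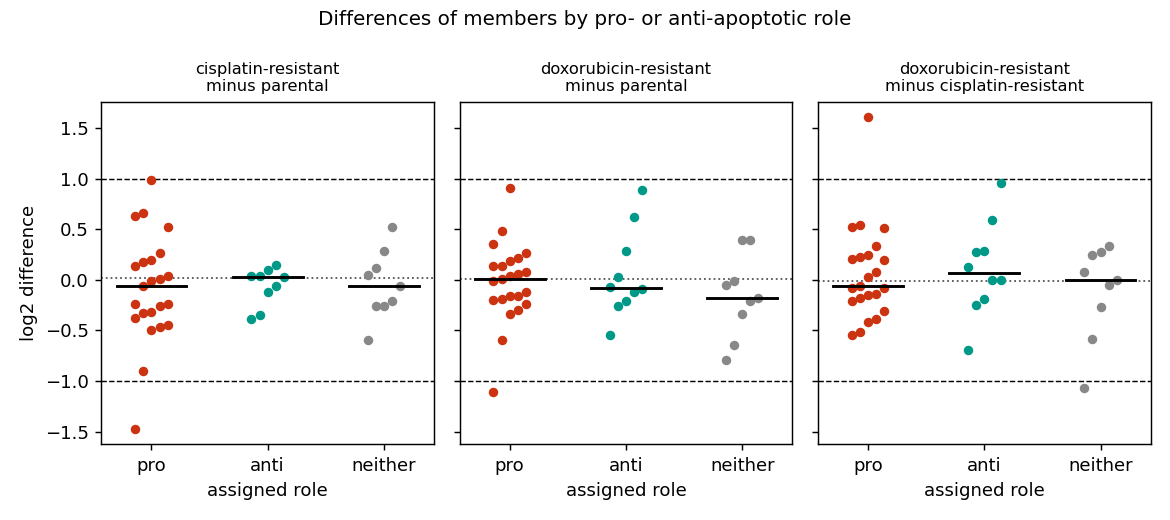
Log2 difference (vertical) of each compared member by assigned role in the 3 comparisons; thick lines are group medians, the dotted line is the median of all compared genes and dashed lines mark 2-fold. The medians of pro- and anti-apoptotic genes lie within 0.13 of each other in every panel, and the points past the dashed lines are PMAIP1, BMF and CASP1.

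The sublines were also compared with each other, which leaves the parental array out. Of 42 compared members, PMAIP1 passed 2-fold upward and CASP1 downward, as doxorubicin-resistant over cisplatin-resistant signal, beside 3.05% and 3.32% of 12593 genes. PMAIP1 was 3.04-fold higher, and 3.95-fold by its second probe set. CASP1 was 2.10-fold lower, and 1.82-fold by the second of 2 measured probe sets. Both are probe sets of cross-hybridising sequence. With probe sets of shared or cross-hybridising sequence left out, CASP1 lay under the floor on all arrays and was not compared. At 1.5-fold, 5 of 42 members were past the threshold, beside 19.1% of all genes. These were PMAIP1, CASP1, BCL2L2 at 1.94-fold higher, BIRC7 at 1.62-fold lower and BCL2L1 at a log2 difference of 0.59, with CASP4 just outside at -0.58. The CASP1 call was lost with quantile normalization, at a log2 difference of -0.99, and with a constant of 50 added in place of the floor, at -0.80. The median of the pro-apoptotic members was -0.06 and that of the anti-apoptotic members 0.07, beside -0.01 for all genes.

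PMAIP1 lies on chromosome 18, where genes as a whole were lower in the cisplatin-resistant array. There the median log2 difference of 175 compared genes was -0.72 and 89.7% of them lay below parental, whereas 179 genes had a median of -0.17 in the doxorubicin-resistant array. Of the 14 nearest compared genes of PMAIP1, 13 were lower in the cisplatin-resistant array, with a median of -0.85. Between the sublines the median of its 14 neighbours was 0.84. With each comparison's own neighbour median subtracted, PMAIP1 differed by -0.62 from parental in the cisplatin-resistant array and by 0.77 between the sublines, so both calls were lost. The log2 difference of PMAIP1 was -1.47, and of the 12 compared genes on each side ZCCHC2, PHLPP1 and NEDD4L, named after their values were seen, were lower still, at -1.58, -1.61 and -1.56. BCL2 lies in the same neighbourhood, but it was under the floor in both the parental and the cisplatin-resistant array and was not compared there.

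**Figure D4:**
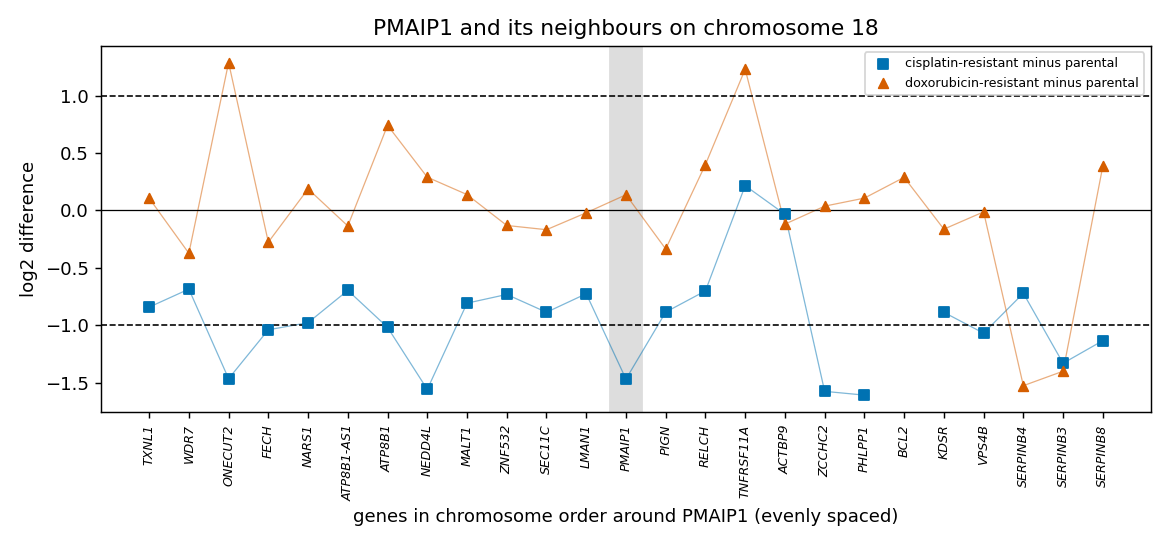
Log2 difference from parental (vertical) of PMAIP1 (grey band) and the 12 compared genes on each side of it in chromosome order, evenly spaced; dashed lines mark 2-fold, and BCL2 has no cisplatin-resistant value. In the cisplatin-resistant array nearly all of these genes lie below 0, with PMAIP1 at -1.47, while in the doxorubicin-resistant array most lie around 0.

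XIAP and AIFM1 lie on chromosome X, where the median log2 difference was -0.36 over 405 genes in the cisplatin-resistant and -0.37 over 410 genes in the doxorubicin-resistant array. The nearest compared genes had medians of -0.60 and -0.49 near XIAP and -0.59 and -0.40 near AIFM1. The 2 genes themselves had log2 differences of -0.39 and -0.26 and of -0.45 and -0.20. By its chosen probe set, each was thus less far below parental than the median of its neighbours. The measured probe sets of XIAP ran from -0.70 to 0.09 and from -0.86 to -0.10, so not all of them lay above those medians. The neighbours of BIK and BMF had medians of 0.25 and -0.11 in the cisplatin-resistant and -0.01 and -0.10 in the doxorubicin-resistant array. CASP2 lies on chromosome 7, and its neighbours had a median of 0.48 in the doxorubicin-resistant array, where CASP2 was at 0.06. The neighbours of BNIP3 and BNIP3L had medians of 0.50 and 0.27 in that array, where the genes were at 0.40 and 0.39. The part of chromosome position in these differences was not tested.

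Other genes of the cell death pathway were examined in lists fixed by role. The lists were chosen with earlier results of these data known, so their shares past 2-fold cannot be weighed against those of all genes. Of death receptors and their ligands, 2 of 11 compared genes were 2-fold higher and none lower in the cisplatin-resistant array, and 3 of 10 were higher and none lower in the doxorubicin-resistant array, with median log2 differences of 0.20 and -0.08. Of all compared genes 2.82% and 2.99% were 2-fold higher in those arrays. FAS, the receptor of FASLG, had signals of 79.7, 253 and 194 in parental, cisplatin-resistant and doxorubicin-resistant cells. It was 3.18-fold and 2.43-fold higher from a parental value near the floor, and its log2 differences over the median of its probe sets were 0.50 and 0.30. TNFRSF1B, TNF receptor 2, which lacks a death domain, had 120.4, 376 and 296, 3.12-fold and 2.45-fold higher. TNFRSF25, a death domain receptor, had 51.5, 88.1 and 235 and reached at least 3.05-fold over parental in doxorubicin-resistant cells. With probe sets of shared or cross-hybridising sequence left out, it was at -0.13. TNFRSF10D, a decoy receptor of TRAIL, was 2.01-fold lower in the doxorubicin-resistant than in the cisplatin-resistant array, a call that was lost in 5 of 10 alternative settings. Its log2 difference was -0.99 with either other scaling of the arrays, -0.91 with 50 added in place of the floor, -0.58 with the floor at the 75th percentile and -0.50 over the median of its probe sets.

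Among inflammasome genes and gasdermins, GSDMC, a pore-forming gasdermin, had 432 in parental, 136 in cisplatin-resistant and 116 in doxorubicin-resistant cells. It was 3.18-fold and 3.71-fold lower, and none of the other compared genes of that list, 8 and 7 in number, reached 2-fold. Of IAP and caspase regulators, PEA15, which binds FADD and caspase 8, had 2924, 2203 and 1408. It was 2.08-fold lower in the doxorubicin-resistant array, the only 1 of 14 genes past 2-fold there, and none of 15 was in the cisplatin-resistant array, beside 2.75% and 2.58% of all compared genes lower. The PEA15 call was lost over the median of its probe sets, at -0.97, and with neighbours subtracted, at -0.81. RNF31, a subunit of the linear ubiquitin ligase, was 2.04-fold higher in the doxorubicin-resistant than in the cisplatin-resistant array, a call lost over the median of its probe sets, at 0.51, and with 50 added, at 0.77. None of 17 and 16 BCL2-interacting and outer membrane genes and none of 10 caspase substrates reached 2-fold against parental. Their medians were 0.09 and -0.00 for the former and 0.07 and -0.21 for the latter.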

How the data were processed

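The authors deposited 1 linear intensity (MAS5 signal) per probe set and array, for 54675 probe sets on 3 arrays. MAS5 is named, with no version, in the submitters' processing notes. After trimming 2% of probe sets at either end, the mean signal of each array was 500.1, as global scaling gives. MAS5 subtracts mismatch signal, which makes low values noisy.

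Gene names came from GEO's platform annotation and were brought up to date by Entrez identifier with a GRCh38.p14 RefSeq table. Of 41097 probe sets of 1 symbol, 99.9% matched, and 1801 of several symbols named no gene. That table also gave gene order. Log2 differences between arrays were computed with Python 3.11.15 and pandas 2.3.3, and the steps were tested on simulated data. Alternatives covered the floor, scaling, choice of probe set, filter and chromosome position, as the median of 7 compared genes on each side. The members and lists were chosen with earlier results of these data known. All members are named, and other genes where they were among the 4 largest differences of at least 2-fold of their list.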

Additional observations from a re-analysis of the deposited data

Results flagged for a closer look

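By their chosen probe sets, PMAIP1 and CASP1 lay in opposite directions from parental in the 2 sublines and differed by at least 2-fold between them. For PMAIP1 the log2 difference of the doxorubicin-resistant from the cisplatin-resistant array was 1.61, with -1.47 and 0.14 against parental. The 0.14 was small, under the median absolute log2 difference of all genes in that comparison, 0.249. The 14 nearest compared genes of PMAIP1 had a median of 0.84 between the sublines. With that median subtracted PMAIP1 was at 0.77, so its 2-fold call was lost. For CASP1 it was -1.07, with 0.28 and -0.79 against parental. The opposite directions of CASP1 held only by its brightest probe set: the other measured 1 was above parental in both sublines, by at least 1.44 and at least 0.58, and differed by 1.82-fold between them. Each subline had 1 array, so neither difference was tested.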

How the results depend on the processing

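With 1 array per line, every value lacks a replicate check. No paired analysis was possible because each group has 1 sample. PMAIP1 in the cisplatin-resistant array kept its direction in all 10 alternative settings (-1.62 to -0.62) and its 2-fold call in 9 of them, and BMF in the doxorubicin-resistant array kept its direction in the 9 that gave a value (-1.12 to -0.90) and its call in 8. The number of members past 2-fold went from 1 to 0 in the cisplatin-resistant array with neighbours subtracted, and from 1 to 0 in the doxorubicin-resistant array with the floor at the 75th percentile or with 50 added. Between the sublines it went from 2 to 1 with either of those settings, with quantile normalization, with the median over probe sets, without probe sets of shared sequence and with neighbours subtracted. It went to 3 with the floor at the 25th percentile, where HRK, under the floor of the main setting on all arrays, was the additional call. The difference of pro- and anti-apoptotic medians moved from -0.08 to -0.21 in the cisplatin-resistant array over the median of probe sets and to -0.016 there with the floor at the 75th percentile, from 0.088 to -0.081 in the doxorubicin-resistant array with neighbours subtracted, and from -0.13 to -0.018 between the sublines with the floor at the 25th percentile. TNFRSF25 turned from at least 1.61 to -0.13 in the doxorubicin-resistant array without probe sets of shared sequence. Over all genes, 5.40% passed 2-fold in the cisplatin-resistant array, 11.8% with the floor at the 25th percentile and 2.76% at the 75th, and the shares in the doxorubicin-resistant array were 5.75%, 12.2% and 3.13%. Between the sublines they were 6.37%, 12.8% and 3.82%. The other causes were not tested. Signals near the floor, as for BCL2, RIPK3, CASP10, BIRC7 and CASP1, limit what can be read for those genes.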
